A study of Mus musculus with 7 samples.

Results

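Bach2 and Pou2af1 are regulators of the choice a B cell makes between staying a B cell, entering the germinal centre and becoming a plasma cell. Both genes were found by symbol in the deposited table, as 2 of its 752 genes, and both were lower in B cells labelled Batf KO. The B cells came from the spleens of 3 mice labelled Batf KO and 4 labelled wild type, all C57BL/6J. The cells were cultured for 6 h with 20 µg/mL lipopolysaccharide (LPS, the bacterial ligand of TLR4) and 20 ng/mL interleukin-4 (IL-4). Both genotypes thus received the same stimuli. Unstimulated cells were not analysed here, so how far each genotype was activated was not tested. Each library was treated as 1 mouse. The labels give no age and do not say which part of Batf is disrupted. The B cells were isolated on magnetic columns, per the design text.

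BACH2 is a transcriptional repressor with a BTB domain and a basic leucine zipper. It pairs with small MAF proteins, holds down Prdm1, the gene of the plasma cell factor BLIMP-1, and is required for class switching and germinal centres. Pou2af1 encodes OCA-B (also called OBF-1 or BOB.1), a coactivator with no DNA binding domain of its own that is held on octamer motifs by the POU factors OCT-1 and OCT-2. OCA-B is required for germinal centre formation. BATF, the product of the disrupted gene, is itself a small basic leucine zipper protein that binds AP-1 motifs with JUN proteins, and composite motifs together with IRF4 or IRF8.

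Bach2 (ENSMUSG00000040270) lies on the plus strand of chromosome 4, from 32238804 to 32586108 in GRCm38, the assembly also called mm10. Its annotated exons cover 9940 bases of a span of 347305 bases. Pou2af1 (ENSMUSG00000032053) lies on the plus strand of chromosome 9, from 51213708 to 51240080, with 2549 exon bases. The antisense gene Bach2os shares 537 exon bases with Bach2, or 5.40% of its exons. No source used here states the strand setting of the counting, so reads from these shared bases cannot be told apart. No other annotated gene shares exon bases with either gene.

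Because both genes were lower where a DNA-binding factor was disrupted, the sequences around their RefSeq start sites (GRCm38.p6) are given, 250 bases before and 50 after, 5′ to 3′ on the plus strand, with the bases from the start site onwards in capitals. The Bach2 window is chr4:32417185-32417484 and lies at an annotated transcript start 178.6 kb into the gene. Counts per gene do not show which of its start sites was used. Sequence at the upstream Bach2 start sites was not searched, so the motif results for Bach2 cover this window only. The Pou2af1 window is chr9:51213440-51213739.
Bach2: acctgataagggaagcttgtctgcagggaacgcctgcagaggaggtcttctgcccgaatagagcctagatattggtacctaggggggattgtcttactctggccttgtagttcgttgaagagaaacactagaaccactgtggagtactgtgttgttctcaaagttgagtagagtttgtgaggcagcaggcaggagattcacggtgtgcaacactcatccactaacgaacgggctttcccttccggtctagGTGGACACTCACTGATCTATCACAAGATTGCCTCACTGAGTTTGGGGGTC
Pou2af1: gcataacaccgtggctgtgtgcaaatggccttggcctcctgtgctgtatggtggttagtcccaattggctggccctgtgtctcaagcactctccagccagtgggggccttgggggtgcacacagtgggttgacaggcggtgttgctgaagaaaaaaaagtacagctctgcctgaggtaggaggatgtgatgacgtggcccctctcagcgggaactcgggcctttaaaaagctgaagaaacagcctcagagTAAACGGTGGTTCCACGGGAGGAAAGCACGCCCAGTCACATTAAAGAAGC
Neither window held the AP-1 motif TGANTCA, which 7.81% of 32851 RefSeq windows of this length hold. Neither held the octamer ATGCAAAT (1.74% of windows) or an interferon-stimulated response element (3.44%). The CRE half-site TGACGT, a motif of basic leucine zipper proteins that was added after the sequences had been read, stands at position -61 from the start in the Pou2af1 window and is in 7.51% of all windows. The Bach2 window has no copy of it. Both strands were searched, no hits overlapped, and a match or its lack says nothing here about binding.

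Effective library sizes, the totals to which the deposited CPM values were scaled, spanned 23675459 to 30844920 reads among Batf KO libraries and 24891094 to 44728937 reads among wild-type libraries. The authors' deposited table holds the genes that passed a false discovery rate (FDR) of 0.05 in their own test of the genotypes, 752 of 19734, so it was selected on the contrast described here. Batf, which checks the labels, had 63.4, 70.3 and 65.8 CPM in the Batf KO libraries, against 315, 307, 333 and 322 CPM in the wild-type libraries. Its Batf KO mean was 20.8% of wild type, and counts per gene do not show which part of the gene these reads came from. Of 7 B cell markers 2 were listed. Ms4a1 (the gene of CD20) was at 879 ± 40.9 CPM in Batf KO (SD, n = 3) and 580 ± 39.6 CPM in wild type (SD, n = 4), and Ighm, the IgM heavy chain gene, was at 1202 ± 76.6 CPM in Batf KO and 1634 ± 178 CPM in wild type. Other spleen cells had 1 listed gene of 11 for T and NK cells (Cd8b1), 1 of 9 for myeloid cells (Zbtb46), 1 of 6 for erythroid cells and platelets (Pf4) and 1 of 6 for plasma cells (Prdm1). Cd8b1 was higher at 6.46 ± 1.12 CPM in Batf KO (SD, n = 3) and 2.05 ± 0.61 CPM in wild type (SD, n = 4), and Zbtb46 was 81.4 ± 8.0 CPM in Batf KO, against 56.4 ± 7.49 CPM in wild type. Pf4 had 77 reads in Batf KO and 60 in wild type, a ratio per library size of 2.20 (exact 95% counting interval 1.55 to 3.13). That interval covers counting only and leaves out variation between mice. With no filter on mean CPM, edgeR's quasi-likelihood test gave Pf4 an adjusted p of 0.175 over 19734 genes. Markers outside the table have no value here, and the part of other cells in the results was not tested.

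Bach2, the repressor, fell by 0.86 on the log2 scale in Batf KO cells (SE 0.07), to 55.3% of its wild-type level. It was measured at 76.6, 77.4 and 68.7 CPM in Batf KO replicates 1 to 3 (2364, 2086 and 1626 reads). In wild-type replicates 1 to 4 it was at 136, 137, 130 and 135 CPM (5405, 4137, 5799 and 3353 reads). The groups did not overlap, and the gap between them was far wider than the range within either. The means were 74.2 ± 4.83 CPM in Batf KO (SD, n = 3) and 134 ± 3.33 CPM in wild type (SD, n = 4). By edgeR's quasi-likelihood test it had an adjusted p of 2.22e-05 over the 667 fitted genes, those whose mean CPM reached 1, and of 0.000656 over all 19734 genes the authors tested. The largest adjusted p over the fitted genes was 0.0347, so every one of them passed and passing there says little. The fit used only genes selected on this contrast, so both adjusted values rest on their spread. The exact two-sided permutation p was 0.0286, the smallest that the 35 splits of 7 libraries allow. Bach2 was selected on these same libraries, so this p adds little beyond the separation of the groups. In bulk RNA, fewer cells that express a gene and less RNA per cell cannot be told apart.

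Pou2af1, the coactivator gene, fell by 0.76 on the log2 scale (SE 0.08), to 58.9% of its wild-type level. It was measured at 284, 277 and 234 CPM in Batf KO replicates 1 to 3 (8762, 7467 and 5548 reads). In wild-type replicates 1 to 4 it was at 447, 440, 471 and 441 CPM (17839, 13256, 21062 and 10989 reads). Each Batf KO library again lay below each wild-type library. The means were 265 ± 26.9 CPM in Batf KO (SD, n = 3) and 450 ± 14.2 CPM in wild type (SD, n = 4). By edgeR the adjusted p was 6.66e-05 over the fitted genes and 0.00197 over 19734 genes. The exact permutation p was again 0.0286, the smallest possible, and it adds as little for a gene selected on these libraries.

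Those calls have to be read against the table. Of 19734 genes, the authors called 1.86% lower in Batf KO, and both members are among them by their presence in the table. In the authors' deposited table Bach2 ranks 39 and Pou2af1 ranks 94 of 752 by p-value, with FDR values of 2.61e-17 and 2.15e-09. Of the 667 genes fitted here, 49.2% passed as lower, 22.8% passed as lower over 19734 genes, and 48.6% had each Batf KO library below each wild-type library. Both members passed in all 3 ways. These shares are over higher and lower genes together. All 328 fitted genes that were lower passed over the fitted genes, and 324 fitted genes had each Batf KO library below each wild-type library. Neither trait therefore sets the members apart from other lower genes of this selected table. In size, Bach2 ranked 110 and Pou2af1 ranked 136 among the 328 fitted genes that were lower, whose median log2 fold change was -0.64.

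**Figure D1:**
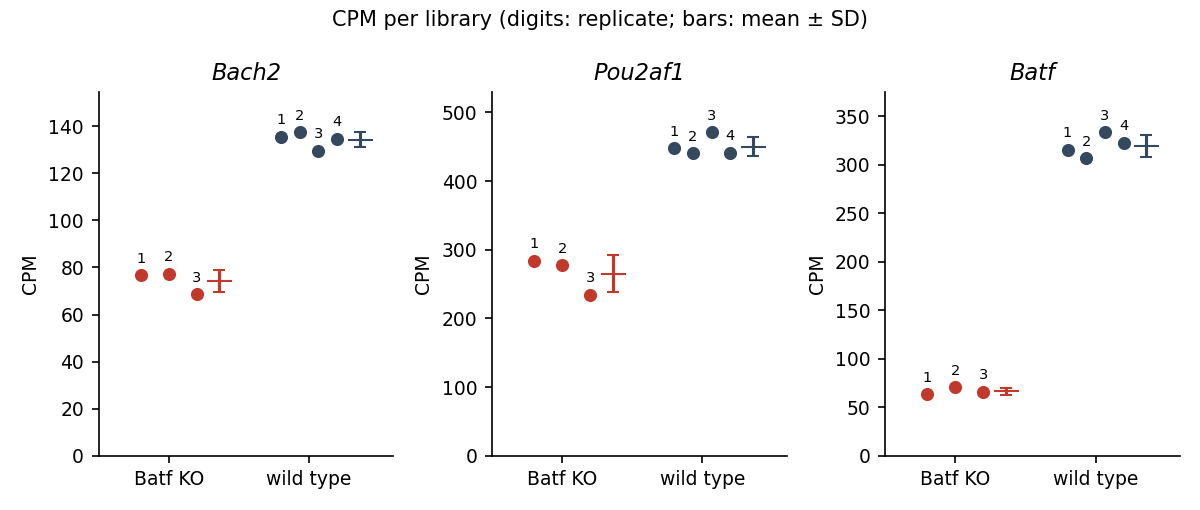
CPM (vertical axis, from 0) of Bach2, Pou2af1 and Batf in each library, 3 Batf KO on the left and 4 wild type on the right. Points are libraries with their replicate number, and the bars give the mean and SD. Bach2 lies at 68.7 to 77.4 CPM in the Batf KO libraries, against 130 to 137 CPM in the wild-type libraries, and Pou2af1 at 234 to 284 CPM in Batf KO libraries, against 440 to 471 CPM in wild-type libraries.

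The plot of CPM per library also shows how the members varied within a genotype. Batf KO replicate 3 was the lowest of its group for both genes, and its library was the smallest of the 7. Without it, the log2 fold change was -0.80 for Bach2 and -0.68 for Pou2af1. The coefficient of variation in Batf KO was 6.51% for Bach2 and 10.2% for Pou2af1, against 2.48% and 3.16% in wild type. Counting alone gives about 2.22% and 1.17% per Batf KO library and 1.46% and 0.80% per wild-type library. Wild-type libraries were alike in pairs over the whole table: chi-square per degree of freedom was 18.4 between replicates 1 and 2 and 20.8 between 3 and 4, against 33.4 to 49.8 for the other wild-type pairs. Bach2 averaged 74.2 CPM in Batf KO, against 137 CPM in wild-type replicates 1 and 2 and 132 CPM in replicates 3 and 4. Pou2af1 averaged 265 CPM in Batf KO, against 444 and 456 CPM in the same wild-type pairs. The difference between the wild-type pairs was small beside that between the genotypes.

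The fall of the 2 genes was compared within each library as the ratio of Pou2af1 to Bach2, in CPM per kb of exon. It was 14.5, 14 and 13.3 in Batf KO, against 12.9, 12.5, 14.2 and 12.8 in wild type. The groups overlapped through wild-type replicate 3. The log2 ratio differed by 0.09 between Batf KO and wild type (SE 0.06, 95% interval -0.05 to 0.23), with an exact two-sided permutation p of 0.171 in a test chosen after the values were seen. A difference in fall between the members was therefore not detectable with 7 libraries, and the interval is the limit on its size.

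Set against other fate regulators in the table, both members changed place in the order of length-scaled levels, as did most of these genes. Ikzf1, Mef2c and Prdm1 kept their place. Bach2 moved only from 9 in wild type to 10 in Batf KO. In Batf KO, Pou2af1 was at 104 ± 10.6 CPM per kb (SD, n = 3), and in wild type at 177 ± 5.58 CPM per kb (SD, n = 4). In the Batf KO libraries it ranked 4 of 11, below Irf4 (294), Spib (118) and Irf8 (107 CPM per kb), and its range of 91.9 to 111 took in the range of Irf8. In the wild-type libraries it came first, its lowest library at 173 CPM per kb lying above the highest of Irf4 at 148. Irf4 encodes an IRF that drives plasma cell fate at high dose, and Spib an ETS factor of B cell identity.

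Bach2 was at 7.47 ± 0.49 CPM per kb in Batf KO (SD, n = 3) and 13.5 ± 0.33 CPM per kb in wild type (SD, n = 4). In Batf KO its highest library (7.79) was below the lowest of Bcl6 (9.80 CPM per kb), the gene of the germinal centre repressor. In wild type its lowest library (13) was above the highest of Bcl6 (7.36 CPM per kb) and its range lay within that of Mef2c (12.5 to 14). Ratios between these genes within a library moved accordingly. Irf4 stood at 36.7 to 41.0 times Bach2 in the Batf KO libraries and 8.81 to 11.2 times Bach2 in the wild-type libraries, per kb. Bcl6 stood at 1.27 to 1.43 times Bach2 in Batf KO, against 0.43 to 0.54 times in wild type. Prdm1, by contrast, stood at 0.13 to 0.16 times Bach2 in Batf KO, against 0.10 to 0.17 times in wild type, so that ratio overlapped. These ratios are descriptions, since each gene was selected for its own difference. The order of these genes within a group depends on the scaling by annotated exon length. In CPM, mean Bach2 was above mean Bcl6 in Batf KO (74.2 against 67.8) and in wild type (134 against 45.9). Mean Irf4 was above mean Pou2af1 in Batf KO (1442 against 265 CPM) and in wild type (662 against 450 CPM).

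**Figure D2:**
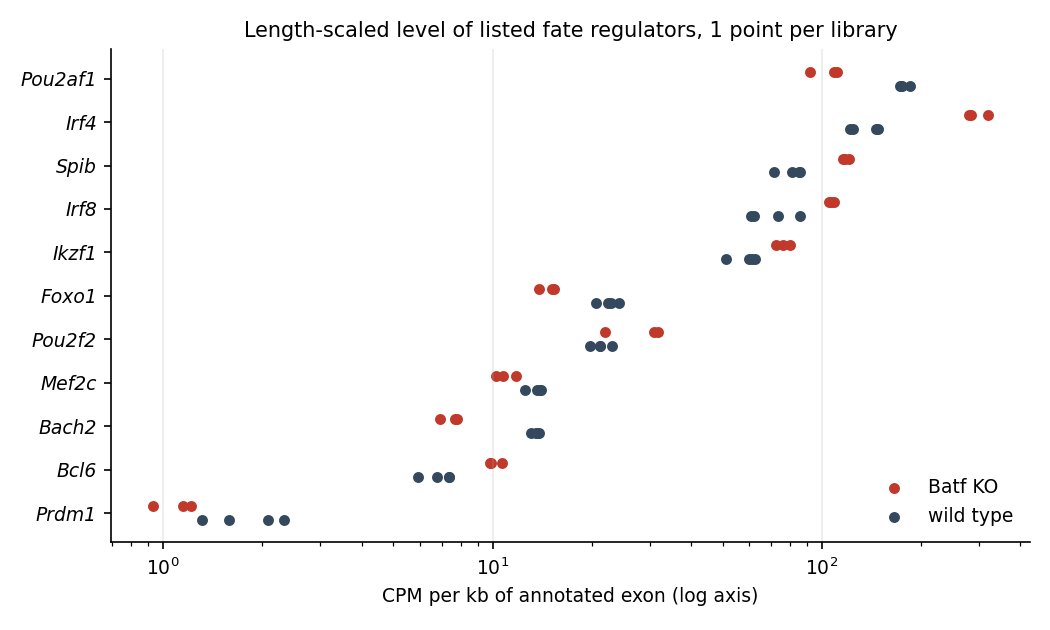
CPM per kb of annotated exon (horizontal log axis) of 11 listed fate regulators, 1 point per library, Batf KO above wild type for each gene. On this scale, Pou2af1 lies below Irf4 in Batf KO and above it in wild type. Bach2 lies below Bcl6 in Batf KO and above it in wild type. By mean CPM without length scaling, Irf4 was above Pou2af1 and Bach2 above Bcl6 in both groups.

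The genes with which BACH2 works were mostly outside the table. Of 9 CNC and small MAF factors, Bach2 was the 1 listed, and Bach1, Mafk, Maff, Mafg and the NFE2 family were not analysed here. For a list of genes, the share listed by the authors among all tested is 3.81%. Of 10 genes known to be repressed by BACH1 or BACH2, among them Hmox1 and Nqo1, 1 was listed, and it was Prdm1. Prdm1 was measured at 6.11 ± 0.81 CPM in Batf KO (SD, n = 3) and 10.2 ± 2.57 CPM in wild type (SD, n = 4). Its log2 fold change was -0.73 (SE 0.22), with an adjusted p of 0.00933 over the fitted genes in edgeR's quasi-likelihood test. Over 19734 genes that p became 0.276, past the threshold of 0.05 (edgeR, unadjusted p 0.00850). The highest Prdm1 value in Batf KO was 6.75 CPM and the lowest in wild type was 7.30 CPM, so the groups did not overlap. Of the 667 fitted genes, 328 were lower and 324 were separated in this way, so the separation of Prdm1 says little in this selected table.

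Of 12 octamer factors and genes known to depend on OCA-B or OCT-2, 5 were listed and fitted, 3 higher and 2 lower, with a median log2 fold change of 0.40 beside 0.30 over all 667 fitted genes. Over 19734 genes 1 of them passed as higher and 1 as lower. The shares passing as higher over all fitted genes are 50.8%, or 20.1% over 19734 genes, and the authors called 1.95% of all genes higher. Pou2f2, which encodes OCT-2, the partner that holds OCA-B on DNA, was at 232 ± 44.9 CPM in Batf KO (SD, n = 3) and 175 ± 10.9 CPM in wild type (SD, n = 4). Its log2 fold change was 0.40 (SE 0.12), its groups overlapped, and its adjusted p over 19734 genes was 0.331 by edgeR. The ratio of Pou2f2 to Pou2af1 within a library, per kb, was 0.20 to 0.34 in Batf KO, against 0.11 to 0.13 in wild type. The ratio did not overlap, but Pou2af1 was selected for its own fall, so this is a description only.

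Spib, a known target of OCA-B, rose 1.46-fold, to 339 ± 6.41 CPM in Batf KO (SD, n = 3), against 232 ± 19.2 CPM in wild type (SD, n = 4). Its adjusted p was 0.00797 over 19734 genes in edgeR's test. Kcnn4, a potassium channel gene of this list, had 5.89 ± 1.80 CPM in Batf KO (SD, n = 3) and 3.22 ± 0.51 CPM in wild type (SD, n = 4). Il6, a cytokine gene that OCT-2 and OCA-B support in B cells, had 29.2 ± 3.73 CPM in Batf KO (SD, n = 3) and 47.3 ± 7.03 CPM in wild type (SD, n = 4). Over 19734 genes neither passed (by edgeR, adjusted p 0.174 for Kcnn4 and 0.0527 for Il6). Pou2af1 was the 1 gene of this list that passed as lower over 19734 genes.

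Of 31 genes of B cell identity and the germinal centre, 12 were listed and 11 fitted, 7 higher and 4 lower, with a median log2 fold change of 0.40. Over 19734 genes 5 passed as higher and 3 as lower, Bach2, Pou2af1 and Foxo1 being those 3. Of all fitted genes, 20.1% passed as higher and 22.8% as lower in that adjustment, and 3.81% of all tested genes were listed. Foxo1, a factor of quiescence and of the germinal centre dark zone, fell to 128 ± 7.08 CPM in Batf KO (SD, n = 3), against 196 ± 13 CPM in wild type (SD, n = 4). Mef2c, a factor of B cell proliferation, was the other lower gene (log2 fold change -0.31, SE 0.07, edgeR adjusted p = 0.0927 over 19734 genes). The genes that rose over 19734 genes were Bcl6 (1.48-fold), Irf8 (1.52-fold), Spib, Ms4a1 (1.52-fold) and Ccr7 (1.61-fold). Ikzf1, a lymphoid zinc finger factor, had a log2 fold change of 0.38 (SE 0.08) and an edgeR adjusted p of 0.0637 over 19734 genes. The members thus fell while other genes of the same list rose.

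Of 22 plasma cell genes, 6 were listed, 3 higher and 3 lower, and over 19734 genes 2 passed in each direction. For this list and the next, the share listed among all tested genes is 3.81%. Of all fitted genes, 50.8% were higher and 49.2% lower, and 20.1% and 22.8% passed over 19734 genes. The median log2 fold change of the plasma cell genes was 0.13. Irf4 rose 2.18-fold and Trib1 1.77-fold, while Atf6 fell 1.30-fold and the chaperone gene Dnajb9 1.52-fold. Slamf7 had a log2 fold change of 0.64 (SE 0.13, edgeR adjusted p = 0.0530 over 19734 genes). Of 12 genes of the BATF family and its partners, 5 were listed: Batf was lower, and Jun, Jund, Irf4 and Irf8 were higher, though the adjusted p of Jund over 19734 genes was 0.199 by edgeR. The median log2 fold change of these 5 was 0.60. Prdm1, at 1.10 CPM per kb in Batf KO and 1.82 CPM per kb in wild type, was the lowest of the 11 regulators in both groups.

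**Figure D3:**
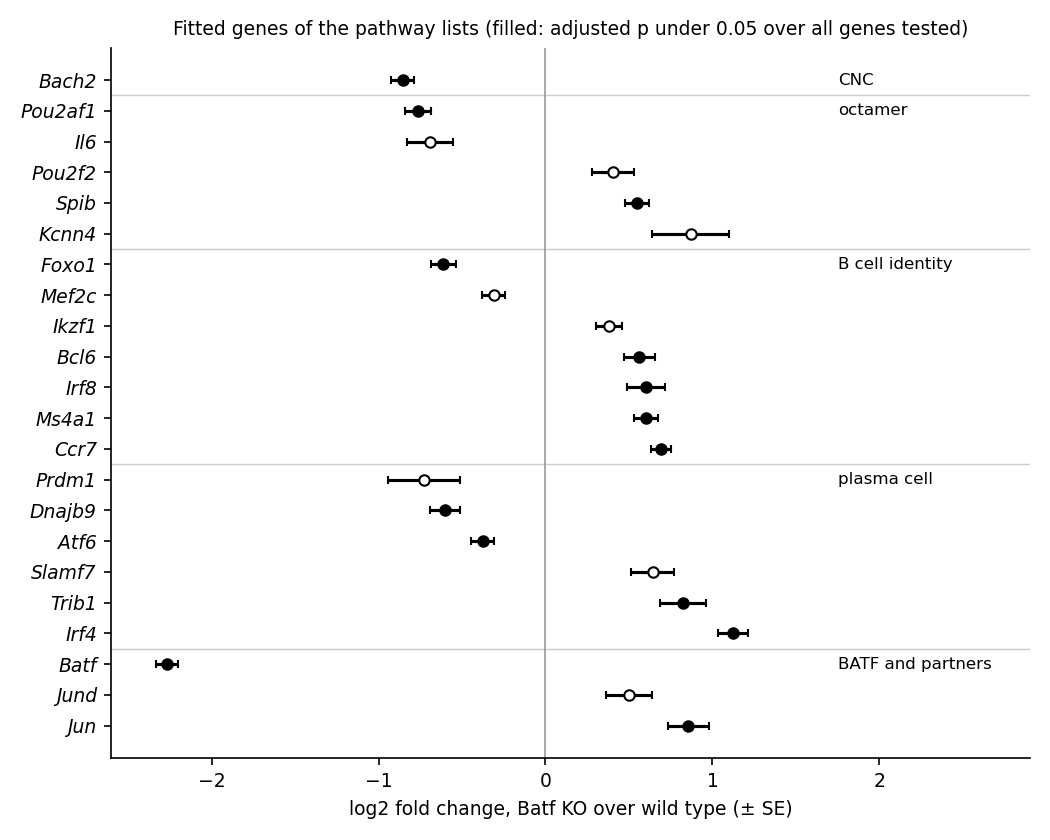
Log2 fold change, Batf KO over wild type, with its SE (horizontal axis) for the 22 fitted genes of 5 pathway lists, each gene shown once. Filled points passed over 19734 genes. Bach2 (-0.86) and Pou2af1 (-0.76) lie among the lower genes, whereas Spib, Bcl6, Irf8 and Irf4 lie above 0.

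The profiles most like each member were sought over the 7 libraries, as the smallest root mean square difference of log2(CPM + 0.5) after each gene's wild-type mean was subtracted. Among 666 other genes, Pou2af1 was the third nearest to Bach2 (0.0834), and Bach2 was the second nearest to Pou2af1. The nearest to Bach2 was Ptger4, the gene of a prostaglandin E receptor, with a difference of 0.0551 and a log2 fold change of -0.88. It was followed by E330009J07Rik (0.0650), Pou2af1, the helicase gene Ercc6l2 (0.0840) and Ly75 (0.0909), the gene of the endocytic receptor DEC-205. After Bach2, the next nearest to Pou2af1 were the adaptor gene Bcar3 (0.0873), Ly75 (0.0898) and E330009J07Rik (0.0983). Pearson's r with the member was 0.97 to 0.99 for these genes. It describes 7 points in 2 groups that differ by genotype, so it mostly repeats the shared difference between Batf KO and wild type. Bcar3 did not share the low value of Batf KO replicate 3, while Ptger4 did.

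**Figure D4:**
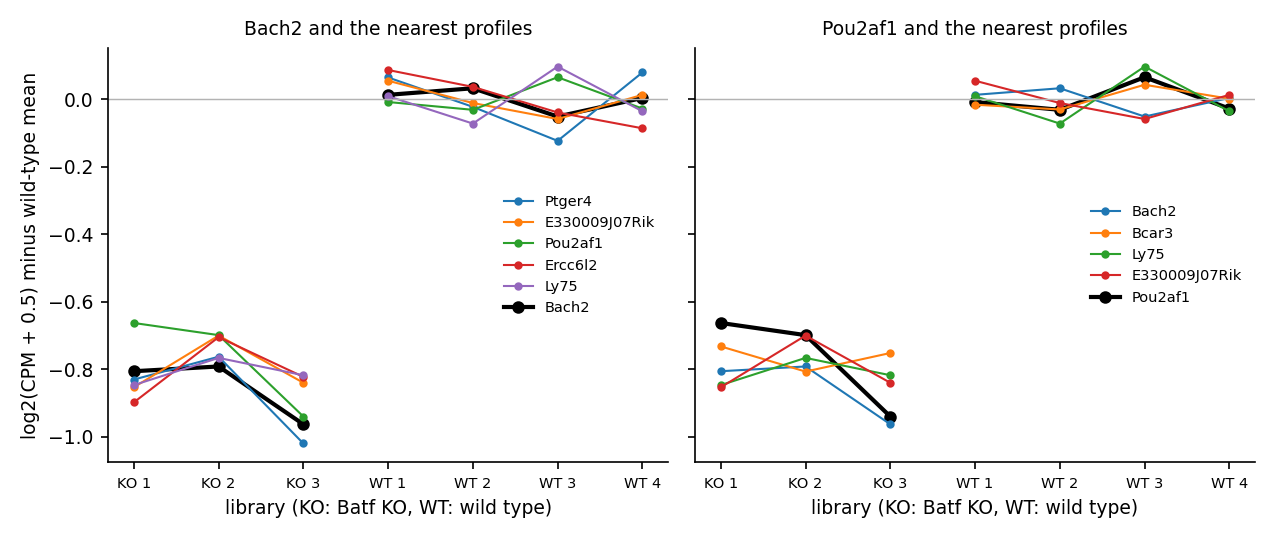
Log2(CPM + 0.5) minus the gene's wild-type mean (vertical axis) in each library, Batf KO left of wild type, for each member (thick black line) and the genes named as nearest to it. The lines join libraries of 1 group only for legibility. Bach2 and Pou2af1 are both lowest in Batf KO replicate 3.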

How the data were processed

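Total RNA of 7 activated B cell cultures (3 Batf KO, 4 wild type) was sequenced as paired-end libraries, per the labels' protocols. TopHat2 2.0.6, HTSeq 0.5.3p7 and edgeR 3.03 are named in the submitters' processing notes with mm10, without roles. No source used here states the annotation, the strand setting or how reads with several positions were treated. The authors deposited 1 table of read counts and CPM per library, with log2 columns for the fold change and average abundance, a likelihood-ratio score, p-values and FDR, per the file headers. It holds the 752 of 19734 genes with an FDR under 0.05. The number tested was recovered from the ratio of FDR to p-value.

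For 667 genes whose mean CPM reached 1, counts were tested two-sided by edgeR 4.0.16 (quasi-likelihood, R 4.3.3), with library sizes recovered as count over CPM. The edgeR values were adjusted by Benjamini-Hochberg over these genes, and over 19734 genes with genes that were not fitted set to 1. The SE of a log2 fold change is its size over the square root of F. Single values were also tested by an exact permutation test of the absolute difference in means (scipy 1.17.1). The edgeR step was tested on simulated data. Exon lengths and positions come from GENCODE M21. Of 752 identifiers 742 were matched. The mice are separate by their labels, but the design text also mentions 2 replicates per sample, which could not be traced. The members and gene lists were chosen with earlier results of these data known. Named genes are the members, Batf, listed genes of the lists, the 5 nearest profiles and neighbours within 1 Mb, and a few genes that this rule names are not reported here. Alternatives were other filters, scalings, pseudocounts, DESeq2 1.42.0, limma 3.58.1 and left-out libraries.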

Additional observations from a re-analysis of the deposited data

How the results depend on the processing

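The log2 fold change stayed between -0.90 and -0.80 for Bach2 and between -0.82 and -0.68 for Pou2af1 over 17 alternatives each. The alternative that changed only the adjustment could not move these values. Both kept their direction and their call in edgeR, DESeq2 and limma fits. Every fitted gene passed over the fitted genes in the main fit, so a call kept at that adjustment says little. With one library left out the range was -0.89 to -0.80 and -0.82 to -0.68. Leaving out wild-type replicates 3 and 4 together, chosen after seeing the data, gave the highest adjusted p over 19734 genes, 0.00763 for Bach2 and 0.0242 for Pou2af1. With one library left out, the exact permutation p was 0.0667 to 0.1 for each member, the smallest that 15 or 20 splits allow, so it could not pass. With all 7 libraries on the log2(CPM + 0.5) scale it was 0.0286, as on the CPM scale. TMM factors shifted the median of all fitted genes by -0.04. TMM and DESeq2 size factors were computed from the selected genes only, which were chosen for differing between the genotypes. Adjusted over 19734 genes, 0 of 1 BACH target (Prdm1, edgeR unadjusted p 0.00850; 1 of 1 by DESeq2 over the fitted genes) and 2 of 5 octamer and OCA-B genes passed. These follow from a stricter adjustment. The other list counts stayed within 1.5 times. Because the genes were selected on these libraries, stability is no independent evidence. No paired analysis was run, since the replicate numbers pair nothing across genotypes. Blocks of mice, such as litters or batches, were not modelled. In the sample titles, wild-type replicates 3 and 4 carry higher numbers than the other wild-type libraries and all Batf KO libraries. Whether the likeness of wild-type libraries in pairs reflects such blocks was not tested. Depth limits the members little.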

Other observations

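Genes near the members were looked up within 1 Mb on each side. None of the 34 other annotated genes around Bach2 (14 protein-coding) is in the table. Of the 49 around Pou2af1 (30 protein-coding), 3 are. The gene 2010007H06Rik, annotated as an antisense transcript (chromosome 9, 51278513 to 51284210), which starts 38.4 kb beyond Pou2af1 on the same strand, had 3.02 ± 0.76 CPM in Batf KO (SD, n = 3) and 5.01 ± 0.52 CPM in wild type (SD, n = 4). Its log2 fold change was -0.73 (SE 0.20), beside -0.76 for Pou2af1, with an edgeR adjusted p of 0.00610 over the fitted genes and 0.181 over 19734 genes. Zc3h12c, an endoribonuclease gene of the Regnase family 871 kb away, had 47.0 ± 1.49 CPM in Batf KO (SD, n = 3) and 60.4 ± 6.09 CPM in wild type (SD, n = 4), with an edgeR adjusted p of 0.140 over 19734 genes. Bco2, a carotenoid-cleaving enzyme gene 659 kb away on the other side, had 65 reads in Batf KO and 36 in wild type, a ratio per library size of 3.09 (exact 95% counting interval 2.03 to 4.79). That interval covers counting only and leaves out variation between mice. With no filter on mean CPM, the edgeR adjusted p of Bco2 over 19734 genes was 0.0849. Whether reads beyond the annotated end of Pou2af1 contribute to 2010007H06Rik was not tested.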
